A study of Mus musculus with 18 samples.

Results

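Gene expression of SIRT6 KD and WT 3T3-L1 cells was compared at 40 hr after the induction of adipogenesis. The means of the adipocyte markers named below were then higher than before induction. The comparison used the 3 arrays titled for SIRT6 KD and the 3 titled for WT at this time, 6 of the 18 arrays in the series, and 22180 genes. Rows of the array that carry exactly 1 gene symbol were kept, and each gene was read on its row of highest mean signal over all arrays. The 12 other arrays hold both genotypes before induction (0 hr) and at 20 hr, with 3 arrays in each group. 3T3-L1 is a mouse preadipocyte line that turns into fat cells on hormonal stimulation. By the study's methods, SIRT6 was knocked down by a lentiviral short hairpin RNA, and adipogenesis was induced by isobutylmethylxanthine, dexamethasone and insulin in confluent cultures of both genotypes. The methods name a control hairpin plasmid but do not say whether the WT cells of the arrays carried it, nor whether infected cells were used as a pool or a clone. The sample labels speak of mice and an inhibitor and give the time without a unit, so the cell line, the hairpin and the hours are the study's. The methods speak of biological replicates for cell culture work in general, without naming the arrays, and the p-values below measure the spread between these arrays.

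SIRT6 is an NAD-dependent deacetylase that removes acetyl groups from histones at the promoters of metabolic and other genes. Preadipocytes arrested at confluence re-enter the cell cycle after induction and divide in a short clonal expansion, which needs DNA replication and mitosis. C/EBPβ and C/EBPδ are induced early, then PPARγ and C/EBPα switch on the genes of lipid uptake, triglyceride synthesis and adipokine secretion, while mitochondria are built up.

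Sirt6 itself read 7.18, 7.08 and 7.13 in the WT arrays and 7.07, 6.80 and 6.86 in the SIRT6 KD arrays, on a log2 scale of hybridisation signal. All SIRT6 KD arrays lay below all WT arrays, but SIRT6 KD replicate 1 lay only just below the lowest WT array. The log2 fold change, SIRT6 KD minus WT, was -0.22 (standard error 0.11, limma adjusted p = 0.479), and p = 0.1 in an exact two-sided permutation of the arrays, which cannot give less with 3 against 3. The difference in Sirt6 was -0.30 at 20 hr and -0.18 at 0 hr. Of the adipocyte markers (Pparg, Cebpa, Fabp4, Adipoq, Plin1, Cd36, Lpl and Cidec), 7 of 8 were above the receptor level over the 18 arrays, all 8 had higher means at 40 hr than at 0 hr in both genotypes, and 7 of them passed limma's adjusted test in each. The receptor level, 6.54, is the 95th percentile of the mean signal of 1407 rows for olfactory and vomeronasal receptors, which these cells are not known to use, and 11888 genes (53.6%) had a mean above it. All 4 fibroblast markers and 4 of 5 measured preadipocyte markers were above it as well. In a culture, fewer cells of a type and less RNA per cell cannot be told apart.

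Correlations between any pair of the 6 arrays over all genes ran from 0.992 to 0.995. SIRT6 KD replicate 1 correlated less with the other SIRT6 KD arrays (mean r = 0.9931) than with the WT arrays (mean r = 0.9939), so the count of genes is given below with and without it. The differences also moved with signal. The median log2 fold change at 40 hr was 0.05 in the dimmest quintile of genes and -0.06 in the brightest quintile, ranked on the 12 arrays of the other times, and 34.0% and 71.4% of these genes were below 0. The standard deviation over genes was 1.80 to 1.86 in the WT arrays and 1.77 to 1.81 in the SIRT6 KD arrays. After cyclic loess, a normalisation that removes such trends between arrays, the medians of the 5 quintiles lay between -0.02 and 0.00. Medians of gene groups are therefore given below both as deposited and after cyclic loess.

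At 40 hr, 4 genes were higher in SIRT6 KD than in WT cells (0.018% of 22180) and 16 were lower (0.0721%), at an adjusted p under 0.05 in limma, a linear model with moderated errors fitted to all 18 arrays. Among these 20 the dermatopontin gene Dpt had the largest rise and the ephrin gene Efna2 the largest fall. Most differences were small, with 92.7% of genes within 0.25 of 0 on the log2 scale. Past a fold of 1.5 were 20 genes and past a fold of 2 was 1, of which 9 and 0 were above the receptor level. Without adjustment, 933 genes were higher (4.21%) and 1512 lower (6.82%) at p under 0.05. The arrays of the genotypes did not overlap in 1367 genes that were higher in SIRT6 KD (6.16%) and in 2174 that were lower (9.8%). The lean toward lower values lay in the genes above the receptor level, of which 64.0% were below 0, with a median of -0.04, and 11.4% were lower at an unadjusted p under 0.05. After cyclic loess that share was 53.3% and the median -0.01. The count rested on single arrays. Without SIRT6 KD replicate 1 it was 18 genes, 13 of them among the 20, without SIRT6 KD replicate 3 it was 4 and without WT replicate 1 it was 5. Without SIRT6 KD replicate 2, WT replicate 2 or WT replicate 3 only 1 gene passed, although all 20 kept their direction each time. At a fold above 1.5 with an unadjusted p under 0.05, 14 genes were higher (0.0631%) and 5 lower (0.0225%).

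**Figure D1:**
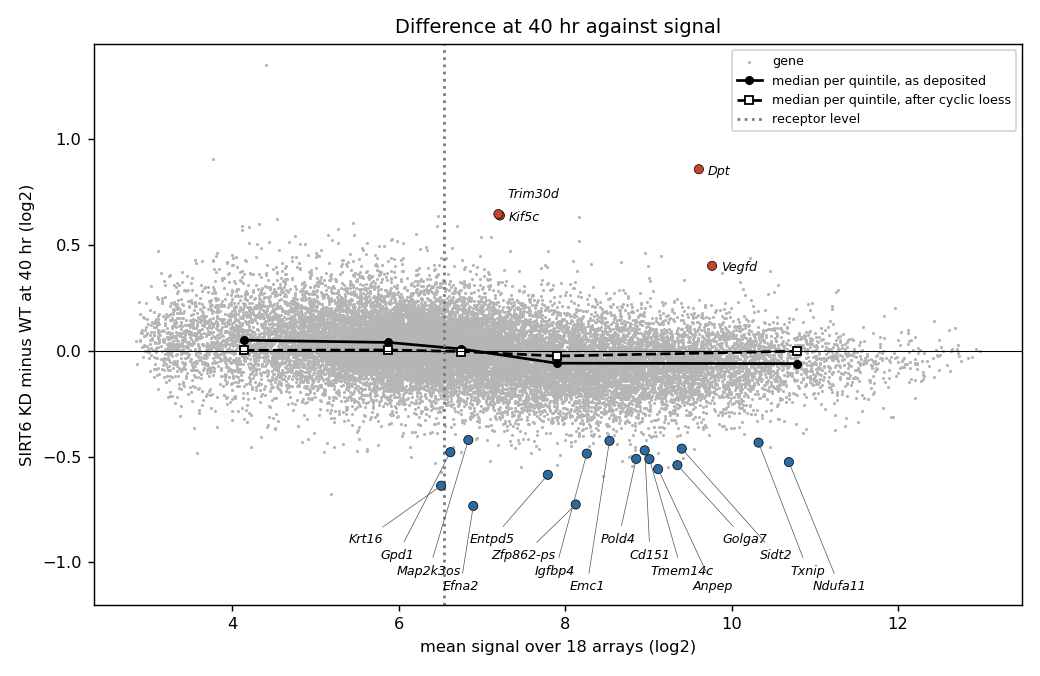
Log2 difference at 40 hr, SIRT6 KD minus WT, against mean log2 signal over 18 arrays, 1 point per gene. Red and blue points are the 4 genes called higher and the 16 called lower, the dotted line is the receptor level of 6.54, and the lines join the medians of the quintiles of genes by signal, which run from 0.05 to -0.06 as deposited and stay between -0.02 and 0.00 after cyclic loess.

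The 4 genes that rose encode a matrix protein, a growth factor, a motor protein and a Trim protein. Dpt, which encodes dermatopontin, a small matrix protein that binds decorin and collagen fibrils, read 9.83, 9.96 and 9.88 in the WT arrays and 10.94, 10.63 and 10.67 in the SIRT6 KD arrays. The groups were well separated, and SIRT6 KD replicate 1 was the highest of the 6. The log2 fold change was 0.86 (standard error 0.13, limma adjusted p = 0.015), a 1.81-fold rise. Trim30d, a member of the mouse Trim30 family of innate immune genes, read 6.21, 6.40 and 6.32 in the WT arrays and 6.84, 7.09 and 6.94 in the SIRT6 KD arrays, a log2 fold change of 0.65 (standard error 0.12, limma adjusted p = 0.0496). Kif5c, a heavy chain of the microtubule motor kinesin-1, read 6.71, 6.77 and 6.59 in the WT arrays and 7.33, 7.29 and 7.36 in the SIRT6 KD arrays. Neither gene overlapped between the groups, and Kif5c changed by 0.64 (standard error 0.10, limma adjusted p = 0.0154). Vegfd, which encodes the vascular endothelial growth factor VEGF-D, read 9.16, 9.26 and 9.16 in the WT arrays and 9.69, 9.49 and 9.60 in the SIRT6 KD arrays. It had the smallest rise of the 4, 0.40 (standard error 0.08, limma adjusted p = 0.0489), with the lowest SIRT6 KD array still above the highest WT array. The paralogs of Kif5c had smaller differences that did not pass the test, 0.08 (adjusted p = 0.799) for Kif5b and 0.06 (adjusted p = 0.915) for Kif5a, the latter below the receptor level.

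Among the 16 genes that fell, several encode proteins of the cell surface or of its surroundings. Efna2, which encodes ephrin-A2, a membrane-anchored ligand of Eph receptors, read 7.18, 7.25 and 7.25 in the WT arrays and 6.70, 6.41 and 6.38 in the SIRT6 KD arrays. SIRT6 KD replicate 1 lay between the WT arrays and the other SIRT6 KD arrays, without overlap, and the log2 fold change was -0.73 (standard error 0.11, limma adjusted p = 0.015). Anpep encodes aminopeptidase N, a surface enzyme that trims peptides, and read 9.31, 9.45 and 9.40 in the WT arrays and 8.93, 8.63 and 8.91 in the SIRT6 KD arrays, a change of -0.56 (standard error 0.09, limma adjusted p = 0.0156). Cd151, a tetraspanin that binds integrins, changed by -0.47 (adjusted p = 0.0392). Igfbp4, which encodes a secreted protein that binds insulin-like growth factors, read 8.99, 9.10 and 9.22 in the WT arrays and 8.70, 8.62 and 8.54 in the SIRT6 KD arrays and changed by -0.49 (adjusted p = 0.0496). The keratin gene Krt16 changed by -0.64 (adjusted p = 0.02) at a signal near the receptor level. Of the whole list of 11 keratinocyte and epithelial markers 4 were above that level, and the mean signal of the list was 6.62 to 6.66 in the WT arrays and 6.57 to 6.63 in the SIRT6 KD arrays. Another keratin gene, Krt15, differed by -0.59 (adjusted p = 0.123). Most genes of the list went the other way, with 3 of the 11 below 0 and a median of 0.10 (0.08 after cyclic loess). The mean difference of the list was -0.03. Of all genes below the receptor level 36.8% were below 0.

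Other genes that fell encode metabolic enzymes and mitochondrial proteins. Gpd1 encodes the cytosolic glycerol-3-phosphate dehydrogenase, which makes the glycerol backbone of triglycerides and rises as adipocytes mature. It read 6.96, 7.16 and 7.09 in the WT arrays and 6.60, 6.53 and 6.64 in the SIRT6 KD arrays, without overlap, and changed by -0.48 (standard error 0.08, limma adjusted p = 0.0161), a 1.39-fold fall. The mean at 40 hr exceeded that at 0 hr by 0.49 in WT and by 0.13 in SIRT6 KD cells, on the same 40 hr arrays. Ndufa11, an accessory subunit of respiratory complex I, read 11.07, 11.09 and 10.98 in the WT arrays and 10.46, 10.42 and 10.68 in the SIRT6 KD arrays and changed by -0.53 (standard error 0.08, limma adjusted p = 0.0161). Each of these 2 genes has a dimmer second row on the array, which differed by -0.15 for Gpd1 and -0.14 for Ndufa11 and did not pass the test. Txnip, which encodes a protein that binds thioredoxin and restrains glucose uptake, changed by -0.43 (adjusted p = 0.04). Entpd5, a nucleotidase of the endoplasmic reticulum that supports the folding of glycoproteins, read 8.40, 8.40 and 8.26 in the WT arrays and 7.76, 7.80 and 7.74 in the SIRT6 KD arrays and changed by -0.59 (adjusted p = 0.0464). Tmem14c, a mitochondrial membrane protein needed for heme synthesis in erythroid cells, changed by -0.51 (adjusted p = 0.0161).

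The rest of the genes that fell belong to membrane traffic, DNA synthesis and non-coding RNA. Golga7, a partner of a palmitoyltransferase at the Golgi, read 9.66, 9.61 and 9.54 in the WT arrays and 9.19, 8.97 and 9.03 in the SIRT6 KD arrays and changed by -0.54 (adjusted p = 0.0169). Emc1, a subunit of the complex that inserts proteins into the endoplasmic reticulum membrane, changed by -0.43 (adjusted p = 0.0156), and Sidt2, a lysosomal membrane protein, by -0.46 (adjusted p = 0.0231). Pold4, the small subunit of the replicative DNA polymerase delta, read 8.83, 8.95 and 8.96 in the WT arrays and 8.56, 8.33 and 8.31 in the SIRT6 KD arrays and changed by -0.51 (adjusted p = 0.0359). The zinc finger pseudogene Zfp862-ps read 8.60, 8.46 and 8.53 in the WT arrays and 7.86, 7.82 and 7.73 in the SIRT6 KD arrays, a change of -0.73 (standard error 0.07, limma adjusted p = 0.000111), the smallest adjusted p of all genes. Zfp862-ps was the only gene called in each of the processing alternatives tried. Map2k3os, a transcript from the strand opposite Map2k3, changed by -0.42 (adjusted p = 0.0359). A pseudogene can share sequence with its parent gene, and the signal of Zfp862-ps is uncertain to that extent.

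**Figure D2:**
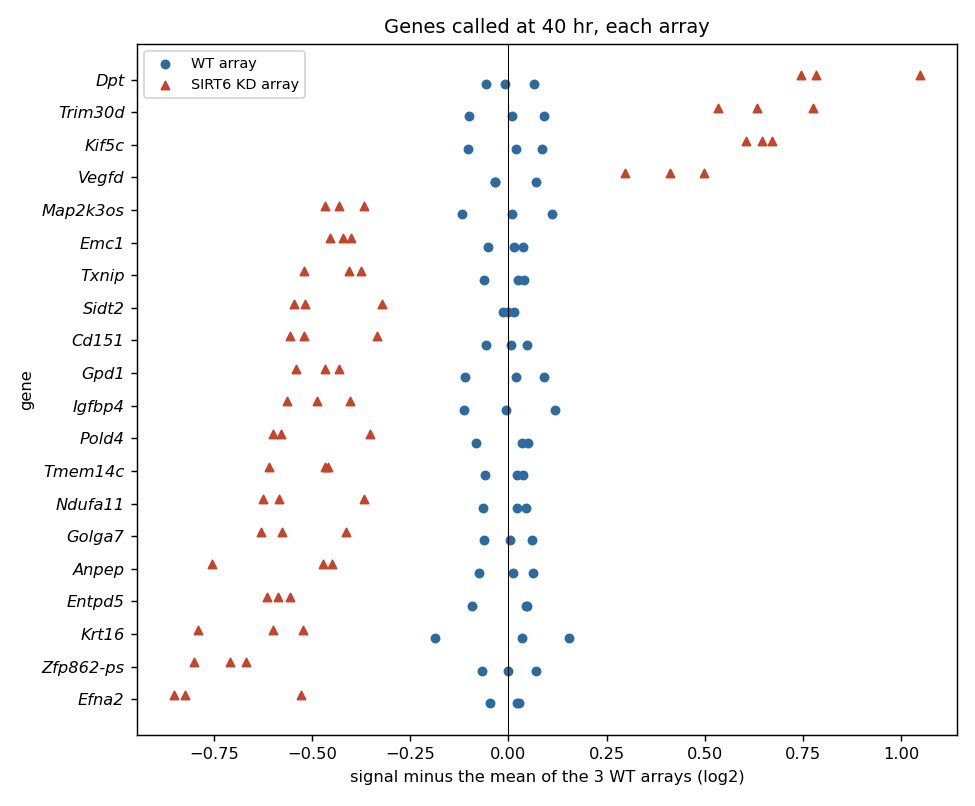
Log2 signal of each 40 hr array minus the mean of the 3 WT arrays, for the 20 genes called at 40 hr. Circles are WT arrays and triangles SIRT6 KD arrays, 3 of each per gene, and no triangle overlaps the circles of its gene.

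Most of these genes lay on the same side at 20 hr and at 0 hr. The 20 hr arrays enter no mean at 40 hr but do enter the error of the fit, so the p-values at the times are not independent. All 4 genes that rose at 40 hr had values above 0 at 20 hr, and 14 of the 16 that fell had values below 0. At an unadjusted p under 0.05, 4 and 10 of them passed at 20 hr, where 3.05% of all genes were higher and 3.52% lower. Separate arrays at 20 hr, all SIRT6 KD beyond all WT, were seen in 15 of the 20, 3 higher and 12 lower, against 5.41% and 6.26% of all genes. Of the genes called at 20 hr with adjustment, 1 higher (0.00451%) and 3 lower (0.0135%), 3 were among the 20, Kif5c, Anpep and Zfp862-ps. At 0 hr, before induction, all 4 genes that rose were also above 0 and 14 of the 16 that fell below 0. Their medians there were 0.03 and -0.06, against 0.64 and -0.51 at 40 hr. Unadjusted, 1 and 5 of them passed at 0 hr (2.9% and 4.01% of all genes). The 5 genes with separate arrays at all 3 times were Zfp862-ps, Anpep, Cd151, Sidt2 and Txnip, where 5.64% of all genes lay above and 6.76% below at 0 hr.

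The differences of single called genes had these values over time. Kif5c had log2 differences of 0.26, 0.65 and 0.64 at 0, 20 and 40 hr, and Trim30d 0.03, 0.61 and 0.65. Anpep had -0.23, -0.56 and -0.56, and in all 3 genes the values at 20 and 40 hr were of like size. Dpt had 0.01, 0.37 and 0.86, with the values at 20 hr overlapping between the groups. Efna2 had -0.01, -0.22 and -0.73. The differences of Gpd1, -0.12, 0.03 and -0.48, of Igfbp4, 0.06, -0.06 and -0.49, and of Map2k3os, -0.03, 0.03 and -0.42, were near 0 at 20 hr. Whether the effect itself differed between times was tested directly. Between 40 and 20 hr limma called 0 genes (0%, smallest adjusted p = 0.786), with 974 (4.39%) at an unadjusted p under 0.05. Between 40 and 0 hr it called 0 (0%, smallest adjusted p = 0.285), with 2074 (9.35%) unadjusted. A different course of any 1 gene was therefore not shown after adjustment.

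**Figure D3:**
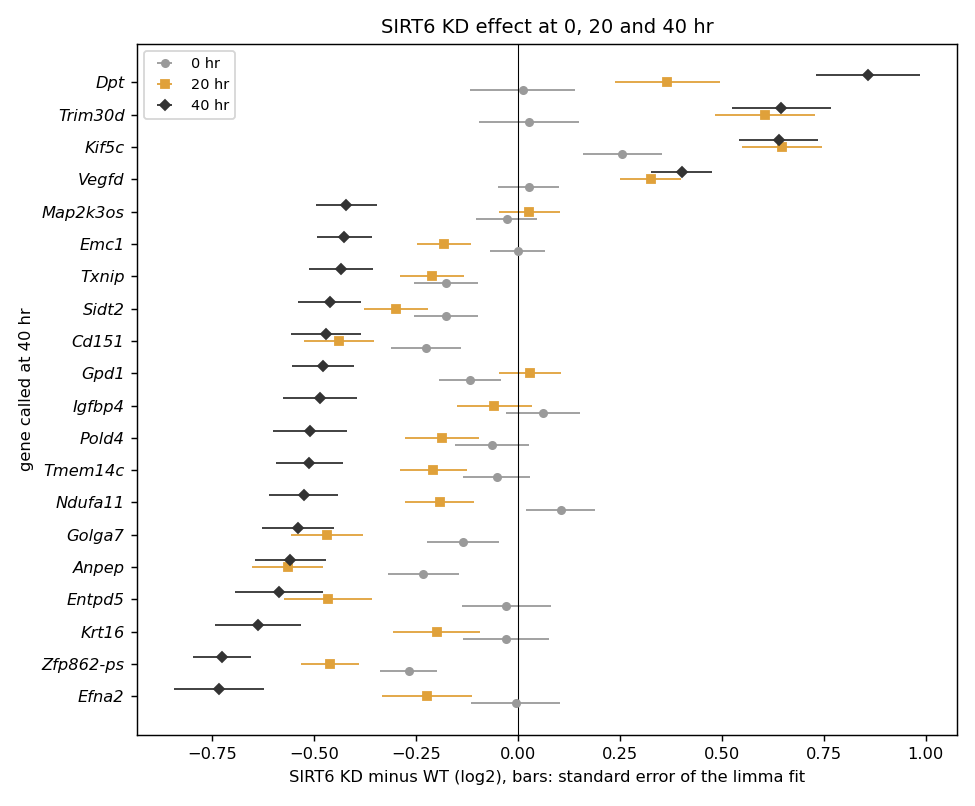
Log2 difference between SIRT6 KD and WT at 0, 20 and 40 hr for genes called at 40 hr, with points for the difference and bars for its standard error in limma. The differences at 40 hr lie between -0.73 and 0.86, while those at 0 hr lie closer to 0.

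Across all genes the differences at 40 hr followed those at 20 hr loosely and those at 0 hr hardly at all. Pearson's r of the log2 fold changes was 0.28 between 40 and 20 hr over all genes and 0.38 over genes above the receptor level. Between 40 and 0 hr the corresponding values were -0.02 and 0.01. The times share no arrays, but genes are not independent and share probes and array design, so the values are a description. Of the 2174 genes with all SIRT6 KD arrays below all WT arrays at 40 hr, 362 were also below at 20 hr (16.7%). The share of all genes below at 20 hr was 6.26%. Of the 1367 above at 40 hr, 150 were also above at 20 hr (10.97%), against 5.41% of all genes. At 0 hr 143 of the 2174 were also below (6.58%), against 6.76% of all genes. Of the 1367, 87 were also above at 0 hr (6.36%), against 5.64%. Genes on the same side at all 3 times numbered 20 above and 49 below, counts for which no reference was computed.

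Pparg and Cebpa, the main adipogenic regulators, had differences near 0 at 40 hr. Pparg, the master regulator of fat cell identity, read 10.55, 10.69 and 10.61 in the WT arrays and 10.64, 10.57 and 10.70 in the SIRT6 KD arrays. The groups overlapped, and the log2 fold change was 0.02 (standard error 0.07, limma adjusted p = 0.946). Cebpa, its partner, differed by -0.04 (adjusted p = 0.953), Fabp4, the fatty acid binding protein of adipocytes, by -0.01 (adjusted p = 0.987), and the adipokine gene Adipoq by -0.01 (adjusted p = 0.992). Fabp4 turned to a value above 0, 0.05, after cyclic loess. Plin1, which coats lipid droplets, differed by -0.02 (adjusted p = 0.959) and Lpl, the lipase that frees fatty acids from lipoproteins, by -0.06 (adjusted p = 0.832). A second, dimmer row of Lpl differed by -0.19 (adjusted p = 0.329), with all SIRT6 KD arrays below all WT arrays. Cebpd, an early factor, read 7.96, 8.13 and 8.20 in the WT arrays and 8.40, 8.25 and 8.51 in the SIRT6 KD arrays, with no overlap and a difference of 0.29 (adjusted p = 0.327), while Cebpb differed by -0.19 (adjusted p = 0.626). The standard errors leave room for moderate differences, and the test does not show that these genes were equal. Of the 24 adipogenic transcription factors 16 were below 0, with a median of -0.09 (-0.04 after cyclic loess). None passed the adjusted test. Without adjustment 2 were higher and 2 lower, against 2.59% and 11.4% of genes above the receptor level. The lower ones included Ppargc1a, a coactivator of mitochondrial genes, at -0.41 (adjusted p = 0.192). Srebf1, which encodes the factor SREBP-1 of lipid synthesis, is on this list and differed by -0.28 (adjusted p = 0.365).

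Among the genes of lipid uptake and synthesis Gpd1 alone passed the test, and the share of these genes below 0 was near that of all genes above the receptor level (64.0%). Cd36, the fatty acid transporter, read 9.10, 9.44 and 9.41 in the WT arrays and 9.06, 8.74 and 8.87 in the SIRT6 KD arrays. No array overlapped, and the difference was -0.43 (standard error 0.11, limma adjusted p = 0.142), beside -0.34 at 20 hr and 0.14 at 0 hr. From 0 to 40 hr Cd36 rose by 1.89 in WT and by 1.32 in SIRT6 KD cells, changes that share the 40 hr arrays with the difference above. Cidec, a lipid droplet protein, read 7.56, 7.47 and 7.72 in the WT arrays and 7.10, 6.81 and 7.25 in the SIRT6 KD arrays, a difference of -0.53 (adjusted p = 0.156). Of the 23 fatty acid and triglyceride genes 16 were below 0, with a median of -0.06 (-0.03 after cyclic loess). Of these 23, 1 was called lower and 7 were lower without adjustment, against 11.4% of genes above the receptor level. The 7 included Dgat2, the last enzyme of triglyceride synthesis, at -0.36 (adjusted p = 0.292). They also included the desaturase Scd1 at -0.33 (adjusted p = 0.143) and fatty acid synthase, Fasn, at -0.29 (adjusted p = 0.27). Of the 27 uptake, droplet and lipolysis genes 19 were below 0, with a median of -0.04 (-0.01), none called and 4 lower without adjustment. Adipokines had 7 of 17 below 0, a median of 0.04, and Retn, the resistin gene, at 0.29 (adjusted p = 0.39).

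**Figure D4:**
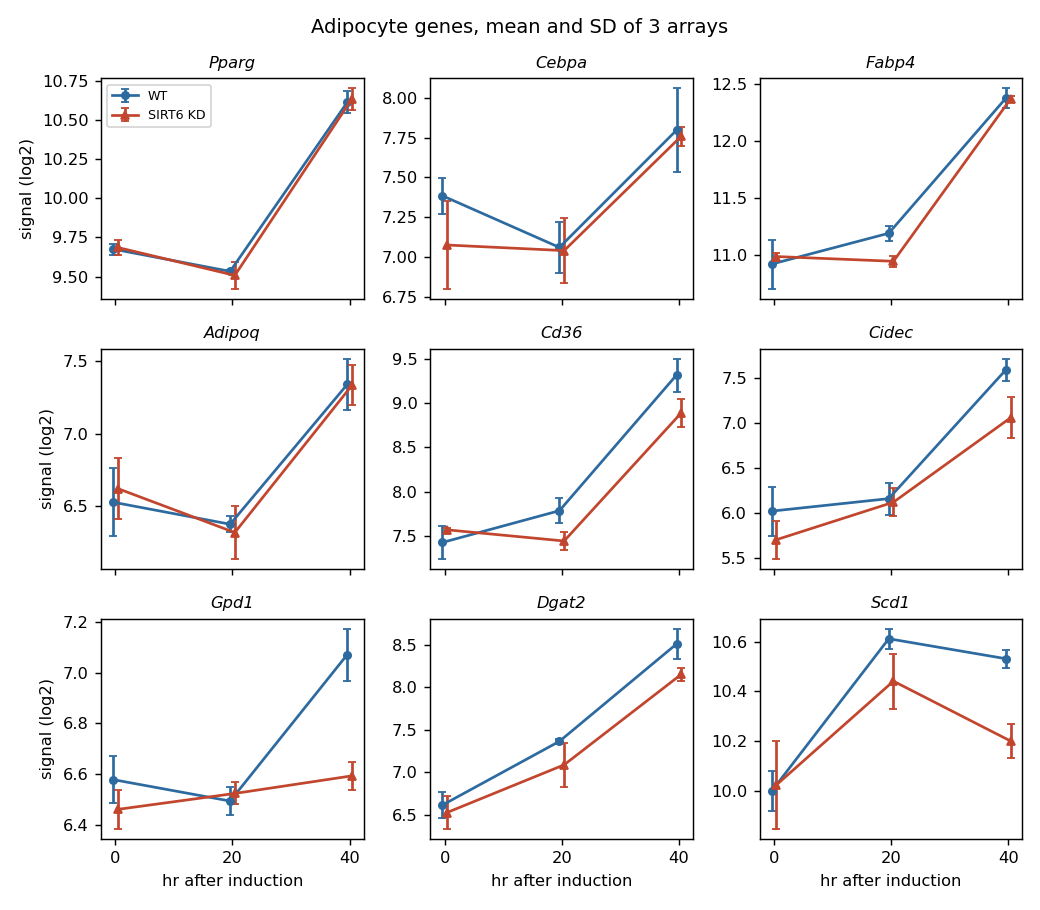
Mean log2 signal at 0, 20 and 40 hr after induction for 9 adipocyte genes, with circles for WT, triangles for SIRT6 KD and bars for the SD of 3 arrays, each panel on its own scale. At 40 hr the means of Pparg, Cebpa, Fabp4 and Adipoq lie together, and those of Cd36, Cidec, Gpd1, Dgat2 and Scd1 are lower in SIRT6 KD cells, of which only Gpd1 passed the adjusted test.

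As deposited, mitochondrial gene groups lay below 0 almost throughout, by small amounts, and 1 of their genes, Ndufa11, was called. The groups were set against all genes, with a median of 0.00 and 51.4% below 0, and against the genes above the receptor level, with -0.04 and 64.0%. Mitochondrial ribosomal proteins form the ribosome that translates the mRNAs of mitochondrial DNA. Of their 69 genes 61 were below 0, with a median of -0.12 (-0.07 after cyclic loess), and 17 were lower and 0 higher without adjustment. Mrps23 read 7.89, 7.93 and 7.94 in the WT arrays and 7.67, 7.41 and 7.41 in the SIRT6 KD arrays, a difference of -0.43 (adjusted p = 0.132), and Mrpl37 differed by -0.38 (adjusted p = 0.121). At the same threshold 11.4% of the genes above the receptor level were lower. Complex I, the entry of electrons from NADH, had 30 of 33 genes below 0 and a median of -0.07, which was -0.01 after cyclic loess. Complexes II, III and IV had 21 of 23 below 0 and a median of -0.12 (-0.08), with Sdhd at -0.40 (adjusted p = 0.156) and Uqcrq at -0.37 (adjusted p = 0.162). ATP synthase genes had 13 of 16 below 0 and a median of -0.12 (-0.08), with Atp5g2 at -0.37 (adjusted p = 0.0973). After cyclic loess 55 of the 69 mitochondrial ribosomal genes and 19 of the 33 complex I genes were below 0. Complexes II, III and IV then had 17 of 23 and ATP synthase 11 of 16, against 53.3% of genes above the receptor level. As deposited, the mean signal of the mitochondrial ribosomal list was 8.43 to 8.55 in WT and 8.27 to 8.41 in SIRT6 KD arrays. These ranges did not overlap, as in several other lists, among them cytosolic ribosomal proteins and chemokines, while those of complex I overlapped. The median change of the mitochondrial ribosomal list from 0 to 40 hr was 0.32 in WT and 0.14 in SIRT6 KD cells.

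Enzymes that feed the respiratory chain lay on the same side. Of the 24 TCA cycle and pyruvate entry genes 21 were below 0 and in 14 of them all SIRT6 KD arrays lay below all WT arrays, against 9.8% of all genes. The median was -0.14 (-0.09 after cyclic loess). Mdh2, the mitochondrial malate dehydrogenase, read 11.55, 11.49 and 11.50 in the WT arrays and 11.19, 11.16 and 11.28 in the SIRT6 KD arrays, a difference of -0.30 (adjusted p = 0.121). Pdk4, a kinase that holds back pyruvate entry, differed by -0.38 (adjusted p = 0.0994), a lower value at an inhibitor of the pathway. Fatty acid oxidation and peroxisome genes had 21 of 24 below 0, a median of -0.11 (-0.07) and 9 lower without adjustment (11.4% of genes above the receptor level), among them Echs1 at -0.36 (adjusted p = 0.0973) and Hadh at -0.29 (adjusted p = 0.141). Genes of branched-chain amino acid breakdown, a pathway that adipocytes use as a carbon source, had 18 of 21 below 0 and a median of -0.15 (-0.10). No gene of these 3 lists passed the adjusted test. Cytosolic ribosomal proteins (50 of 56 below 0, median -0.09, -0.04 after cyclic loess) and the proteasome (25 of 30, -0.07, -0.01) lay below 0 as well, so the lean was not limited to mitochondria. These lists are of bright genes, where the deposited medians of all genes also lie below 0.

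**Figure D5:**
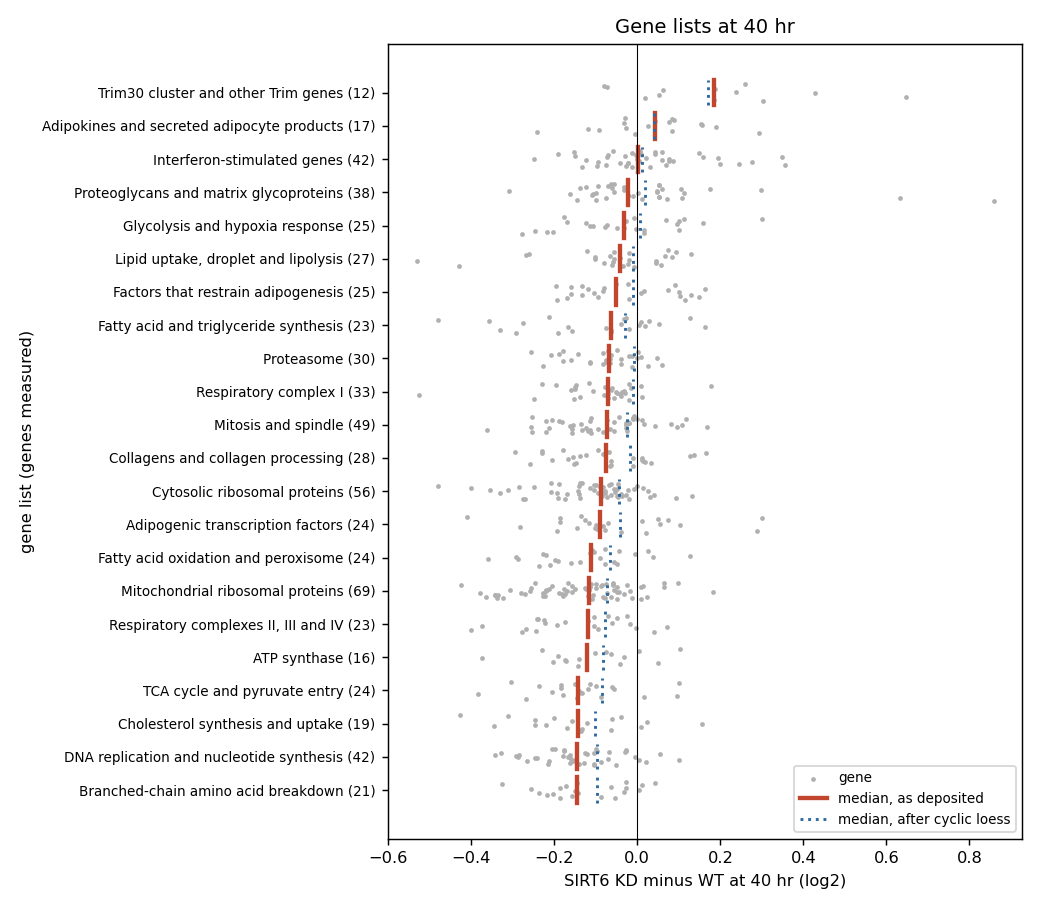
Log2 differences at 40 hr for the genes of selected lists, 1 point per gene, with the median of each list as deposited and after cyclic loess. Medians of the mitochondrial, cholesterol and replication lists lie between -0.15 and -0.07 as deposited and between -0.10 and -0.01 after cyclic loess, and that of the Trim30 list lies at 0.19.

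Cell cycle genes gave small values below 0, which differed little in size from those of the mitochondrial lists. Of the 42 DNA replication and nucleotide synthesis genes 38 were below 0, with a median of -0.14, which after cyclic loess became 33 of 42 and -0.10. Without adjustment 10 were lower and 0 higher, against 11.4% and 2.59% of genes above the receptor level. Pole2, a subunit of DNA polymerase epsilon, read 7.73, 7.80 and 7.63 in the WT arrays and 7.42, 7.35 and 7.36 in the SIRT6 KD arrays, a difference of -0.34 (adjusted p = 0.232). Its catalytic partner Pole differed by -0.29 (adjusted p = 0.165). A second row of Pole, below the receptor level, differed by 0.22 (limma adjusted p = 0.611). Rpa2, which coats single-stranded DNA, differed by -0.33 (adjusted p = 0.208). At 20 hr the same list had a median of -0.02. Mitosis and spindle genes had 41 of 49 below 0 and a median of -0.07, which after cyclic loess became 27 of 49 and -0.02. Without adjustment 8 of them were lower, against 14.8% in the brightest quintile of all genes, among them Birc5, the survivin gene, at -0.36 (adjusted p = 0.143) and Cenpa, a centromere histone gene, at -0.26 (adjusted p = 0.342). Their change between 0 and 40 hr had a median of -0.41 in WT and -0.50 in SIRT6 KD cells. Cyclins, kinases and E2F factors of G1 and S had 16 of 19 below 0 (median -0.11) and the list of kinase inhibitors and p27 turnover 12 of 14 (median -0.10). The first list also holds brakes of the cycle such as Rb1, and the second also holds Cks2, a small partner of the kinases, at -0.35 (adjusted p = 0.102). Cdkn1b, which encodes the inhibitor p27, differed by -0.11 (adjusted p = 0.662), Skp2, which targets p27 for breakdown, by -0.02 (adjusted p = 0.96), Ccna2 by -0.16 (adjusted p = 0.577), Cdk1 by -0.22 (adjusted p = 0.498) and Cdk2 by -0.15 (adjusted p = 0.515). The catalytic subunits of the kinase CK2, Csnk2a1 and Csnk2a2, differed by 0.05 (adjusted p = 0.866) and -0.10 (adjusted p = 0.695).

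Cholesterol genes gave one of the lowest medians of the 48 lists. Of the 19 genes of cholesterol synthesis and uptake 16 were below 0, with a median of -0.14 (-0.10 after cyclic loess), and in 8 all SIRT6 KD arrays lay below all WT arrays, against 9.8% of all genes. None passed the adjusted test and 7 were lower without adjustment, against 6.82% of all genes and 11.4% above the receptor level. Sqle, which oxidises squalene, read 9.61, 9.61 and 9.42 in the WT arrays and 9.25, 9.11 and 9.25 in the SIRT6 KD arrays, a difference of -0.34 (adjusted p = 0.142). Stard4, a cholesterol carrier, differed by -0.43 (adjusted p = 0.0665) and Srebf2, which encodes the factor that activates the pathway, by -0.31 (adjusted p = 0.221). The list had a median of 0.00 at 20 hr and of 0.13 at 0 hr, where 3 of the 19 were below 0. Its change from 0 to 40 hr had a median of -0.66 in WT and -0.80 in SIRT6 KD cells.

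Promoters of the cell cycle and cholesterol genes were searched for the motifs by which these groups are known to be controlled, in the 250 bases before and 50 after each start in RefSeq (GRCm38.p6), on both strands. An E2F motif (TTTGGCGC, TTTCGCGC, TTTCCCGC or TTTGCCGC) stood in 15 of 33 replication promoters (45.5%), against 2.60% of 27025 genes. The cell cycle homology letters TTTGAA stood in 30 of 42 mitosis promoters (71.4%), against 20.2%, and CCAAT in 31 (73.8%), against 41.1%. The sterol regulatory letters TCACNCCAC stood in 1 of 15 cholesterol promoters (6.67%), against 1.44%, and TCACNCNAC in 2 (13.3%), against 3.15%. The medians at 40 hr were -0.11 for replication genes with an E2F motif and -0.13 without, -0.06 and -0.08 for mitosis genes with and without TTTGAA, and -0.03 and -0.12 for those with and without CCAAT. Shown are 1 promoter of each list, read 5′ to 3′ on the strand of the gene with the motif in capitals, from the member of smallest p that holds it. The window of Pole2 is chr12:69228141-69228440 on the minus strand, that of Cenpa is chr5:30666636-30666935 on the plus strand, and that of Hmgcs1 is chr13:119690101-119690400 on the plus strand. Hmgcs1, which makes HMG-CoA for cholesterol synthesis, was taken as the only cholesterol gene with the motif after its value was seen, a difference of -0.14.
Pole2: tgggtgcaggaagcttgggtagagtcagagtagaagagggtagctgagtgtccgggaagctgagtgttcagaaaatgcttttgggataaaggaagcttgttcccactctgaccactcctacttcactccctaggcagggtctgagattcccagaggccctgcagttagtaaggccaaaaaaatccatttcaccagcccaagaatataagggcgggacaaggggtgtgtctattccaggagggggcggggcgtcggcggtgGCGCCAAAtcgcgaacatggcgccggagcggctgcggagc
Cenpa: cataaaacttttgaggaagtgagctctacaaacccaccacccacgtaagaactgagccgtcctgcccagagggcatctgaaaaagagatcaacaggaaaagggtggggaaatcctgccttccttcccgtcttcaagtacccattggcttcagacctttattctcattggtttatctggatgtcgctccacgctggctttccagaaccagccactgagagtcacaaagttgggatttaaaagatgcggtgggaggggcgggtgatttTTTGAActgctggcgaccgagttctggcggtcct
Hmgcs1: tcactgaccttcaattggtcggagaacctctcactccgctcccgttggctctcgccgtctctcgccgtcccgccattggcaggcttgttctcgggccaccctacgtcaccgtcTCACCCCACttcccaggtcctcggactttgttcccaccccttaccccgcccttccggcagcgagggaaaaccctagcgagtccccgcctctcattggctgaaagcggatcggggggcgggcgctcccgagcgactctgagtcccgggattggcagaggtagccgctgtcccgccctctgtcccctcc
A match is a description of the letters and not a site of binding.

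The Trim30 list stood on the other side of 0. Of its 12 genes 2 were below 0, with a median of 0.19 (0.17 after cyclic loess). In the list 1 gene was called higher and 4 were higher without adjustment, against 4.21% of all genes. Only 5 of the 12 were above the receptor level, with a median of 0.26. Of all genes below that level 36.8% were below 0, with a median of 0.04. The study measured Trim30d and the genes of this family were listed with it, so the list is no independent evidence of its direction. Trim12c read 4.93, 4.76 and 4.64 in the WT arrays and 5.31, 4.84 and 5.48 in the SIRT6 KD arrays, a difference of 0.43 (adjusted p = 0.296), and Trim30a differed by 0.30 (adjusted p = 0.344). The family members lie close in sequence and probes can be shared between them, so their values are uncertain as separate measurements. The mean signal of the list, 6.02 to 6.12 in WT and 6.23 to 6.29 in SIRT6 KD arrays, was below the receptor level. Interferon-stimulated genes as a whole were balanced, with 21 of 42 below 0 and a median of 0.00, and Ifit2 at 0.35 (adjusted p = 0.208).

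Extracellular matrix lists held 1 called gene, Dpt. Of the 38 proteoglycans and matrix glycoproteins 21 were below 0, with a median of -0.02, which was 0.02 after cyclic loess. In the list 1 gene was called higher. Without adjustment 3 were higher and 3 lower, against 2.59% and 11.4% of genes above the receptor level. Ogn, the gene of the small proteoglycan osteoglycin, read 6.39, 6.71 and 6.48 in the WT arrays and 7.23, 7.45 and 6.79 in the SIRT6 KD arrays. The groups did not overlap, but the difference of 0.63 (standard error 0.18, limma adjusted p = 0.181) did not pass the test. Thbs1, the thrombospondin gene, differed by 0.30 (adjusted p = 0.232) and Tnc, the tenascin gene, by -0.31 (adjusted p = 0.165). Collagens and collagen processing genes had 20 of 28 below 0 and a median of -0.08 (-0.02 after cyclic loess), with none called.

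Genes that respond to induction were set apart by their change from 0 to 20 hr, averaged over both genotypes, on arrays that enter the 40 hr comparison only through the error of the fit. Of the 300 genes at least 2-fold higher at 20 hr (1.35% of all) 77.0% were below 0 in SIRT6 KD cells at 40 hr, with a median of -0.11 and 18.7% lower without adjustment. Of the 255 genes at least 2-fold lower at 20 hr (1.15%) 39.2% were below 0, with a median of 0.04. After cyclic loess the induced genes had a median of -0.06 and 66.3% below 0, and the repressed genes 0.06 and 36.5%. The induced genes thus lay lower and the repressed genes higher in SIRT6 KD cells, by both measures. The induced genes were bright, with a median signal of 8.58 at the earlier times against 7.62 for the repressed genes. In the 2 brightest quintiles of all genes 67.2% and 71.4% were below 0 and 12.6% and 14.8% were lower without adjustment. The shares of the induced genes, 77.0% and 18.7%, lay somewhat above these. After cyclic loess the 66.3% of the induced genes stood against 53.3% of all genes above the receptor level. The median signal of the repressed genes fell in the quintile with 67.2% below 0, against their 39.2%. How far signal accounts for these shares was not tested.

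Beyond the called genes, a few genes had large differences with separate arrays. Rabac1, which encodes a partner of Rab proteins, read 9.61, 9.67 and 9.49 in the WT arrays and 9.10, 8.87 and 9.15 in the SIRT6 KD arrays, a difference of -0.55 (adjusted p = 0.0665). Ahcy, which clears S-adenosylhomocysteine, differed by -0.54 (adjusted p = 0.148) on its brightest row and by 0.51 on a second, dimmer row, so its direction depends on the row. Shmt2, the mitochondrial enzyme of serine and glycine metabolism, differed by -0.52 (adjusted p = 0.15). On rows that were not the brightest of their gene, limma also called Rab39b higher, by 0.73 (adjusted p = 0.00528), and Necap1 lower, by -0.57 (adjusted p = 0.0359). These genes were chosen for their rows after the values were seen and are not counted among the 20.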

How the data were processed

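RNA of 3T3-L1 cells was measured on Affymetrix Mouse Gene ST arrays. The deposited values are log2 signals that the authors normalised with RMA, per the submitters' processing notes; the RMA version and annotation were not given in the sources used here. The 41345 rows were named from the platform annotation, 23521 rows with exactly 1 symbol were fitted, and 22180 genes were read on their brightest row; 16004 rows had no symbol and 1820 several. Arrays were grouped by their titles.

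limma 3.58.1 in R 4.3.3 was fitted to all 18 arrays in 6 groups, with no covariate, 12 residual degrees of freedom and Benjamini-Hochberg adjustment over the fitted rows. The scripts were tested on simulated data. Single genes were also compared by two-sided exact permutation tests. The number of arrays limits the precision.

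The members and lists (48 lists, 1144 of 1245 genes matched) were chosen with earlier results of these data known. Genes were named if called, among the 10 largest rises or falls with separate arrays above the receptor level, among the 4 of smallest p in a list where p was under 0.05, or if the study measured them. Alternatives covered the statistic, the rows adjusted over, the scaling, the block, array weights, thresholds and each array left out.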

Additional observations from a re-analysis of the deposited data

Results flagged for a closer look

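A few named genes lay apart in opposite directions at 2 times, all SIRT6 KD arrays below all WT arrays at 40 hr and all above at an earlier time. Of all genes, 5.64% had all SIRT6 KD arrays above all WT arrays at 0 hr and 5.41% at 20 hr. The effect at 40 hr minus that at 0 hr was -0.53 for Cks2 (limma standard error 0.11, adjusted p = 0.285), -0.56 for the cholesterol gene Sqle (0.13, adjusted p = 0.288), -0.33 for Hmgcs1 (0.11, adjusted p = 0.416) and -0.49 for the matrix gene Tnc (0.12, adjusted p = 0.363). For Pole2 the effect at 40 hr minus that at 20 hr was -0.45 (0.15, adjusted p = 0.998). None of the 5 differences passed the adjusted test.

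Rows outside the comparison also gave calls. In a fit of all rows 3 of the 17824 rows with no gene symbol or several were called at 40 hr, 1 higher and 2 lower, with 1497 at an unadjusted p under 0.05. They carry no single gene name and were not used.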

How the results depend on the processing

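The 20 genes called at 40 hr kept their direction in each alternative, while their number did not hold. It was 52 with an unmoderated statistic, 107 with a trended and robust prior, 93 among rows above the receptor level only, 9 with all rows in the adjustment, 13 with arrays centred on the median, 62 with array weights, 3 with only the 6 arrays at 40 hr, 1 at an adjusted p under 0.01 and 71 under 0.1. After cyclic loess it was 17, 5 higher and 12 lower, 15 of them among the 20. Leaving out 1 array gave 1 to 18 genes. With the replicate number as a block (replicate block) it was 12. Deviations of arrays of the same number at 40 hr had r = -0.06, -0.06 and 0.03, while SIRT6 KD replicate 1 and WT replicate 2 had 0.12. So few arrays cannot show whether the numbers pair the samples. With 3 arrays a group, limma borrows its error from the other groups, and the cause of these shifts was not tested.

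Genes past a fold of 1.5 at an unadjusted p under 0.05 numbered 19, and 9 above the receptor level, 12 after cyclic loess (7 higher, 5 lower, against 14 and 5), 258 past a fold of 1.3, 1 past a fold of 2 and 27 to 60 without 1 array. The test between 40 and 0 hr called 1 gene with a trended and robust prior. After cyclic loess the medians were -0.085 for the TCA list, -0.066 for fatty acid oxidation and -0.097 for branched-chain amino acids, and the Trim30 list stood at 0.26 above the receptor level. Without 1 array the medians ran from -0.13 to -0.027 for adipogenic transcription factors and from -0.11 to -0.026 for fatty acid and triglyceride synthesis, with SIRT6 KD replicates 1 and 2 left out in that order, from -0.14 (SIRT6 KD replicate 1) to -0.031 (WT replicate 2) for mitosis, from -0.11 (WT replicate 3) to -0.036 (WT replicate 2) for complex I, from -0.062 (SIRT6 KD replicate 1) to -0.019 (SIRT6 KD replicate 3) for lipid uptake, from -0.16 to -0.10 for fatty acid oxidation and from 0.12 to 0.19 for the Trim30 list.

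Some values near 0 changed sign, none of them called. Fabp4 was 0.048 and Skp2 0.039 after cyclic loess, and Cebpa 0.058 with array weights. Without 1 array Adipoq ran from -0.10 to 0.076, Cebpa from -0.19 to 0.064, Fabp4 from -0.052 to 0.033, Pparg from -0.013 to 0.058, Plin1 from -0.064 to 0.0084, Skp2 from -0.065 to 0.020, Csnk2a1 from -0.0074 to 0.12 and Kif5a from -0.11 to 0.19.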

Other observations

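The chemokine, cAMP, NRF2, unfolded protein and TGF-beta lists also had medians slightly below 0 at 40 hr, and none of their genes passed limma's adjusted test. Of the 31 chemokine, cytokine and NF-kB genes 18 were below 0 (median -0.03, -0.03 after cyclic loess). Without adjustment 7 were lower and 3 higher, against 6.82% and 4.21% of all genes and 11.4% and 2.59% above the receptor level. The list holds the NF-kB subunit genes Rela at -0.40 (adjusted p = 0.181) and Nfkb2 at -0.33 (adjusted p = 0.142) and the chemokine gene Ccl9 at 0.31 (adjusted p = 0.181). Of the 25 cAMP-responsive genes and phosphodiesterases 18 were below 0 (median -0.07, -0.02), among them Nr4a2, a nuclear receptor induced by cAMP, at -0.36 (adjusted p = 0.175) and the kinase Sik1 at -0.27 (adjusted p = 0.193). NRF2 antioxidant genes had 15 of 23 below 0 (median -0.07, -0.01), with the quinone reductase Nqo1 at -0.37 (adjusted p = 0.128). Genes of the unfolded protein response and ATF4 had 22 of 28 below 0 (median -0.05, -0.01), with the chaperone Calr at -0.24 (adjusted p = 0.168) and the secreted factor Manf at 0.23 (adjusted p = 0.383). TGF-beta and BMP genes had 20 of 29 below 0 (median -0.05, -0.03), with Tgfb2 at -0.28 (adjusted p = 0.232). Insulin and IGF signalling genes had 16 of 25 below 0 (median -0.04, -0.02) with Igfbp4 called lower, ephrins and Eph receptors 11 of 18 (median -0.05, -0.03) with Efna2 called lower, and PDGF, FGF and VEGF genes 15 of 27 (median -0.01, 0.02) with Vegfd called higher.

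Markers of other cell types were mostly near or below the receptor level, with 1 of 10 endothelial, 4 of 12 macrophage and leukocyte, 6 of 12 skeletal muscle, 3 of 9 bone and cartilage, 7 of 10 neuron and glia and 1 of 10 hepatocyte markers above it. Of the 15 brown and beige fat markers 2 were above it. Prdm16, a factor of brown fat identity with a signal below that level, differed by 0.30 (adjusted p = 0.382). A second, dimmer row of Prdm16 differed by -0.06 (limma adjusted p = 0.903), so its direction depends on the row. Across these lists 0 genes passed the adjusted test, apart from Krt16 among the keratinocyte markers.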
